A study of Mus musculus with 4 samples.

Results

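The genes of the mouse histone clusters, with the few that carry the same names elsewhere, were described in the open chromatin of submandibular salivary gland organoids (mSGOs), which are clusters of cells grown in Matrigel from dissociated adult gland. Members were the protein-coding autosomal genes of a RefSeq table (GRCm38.p6) whose symbol or synonym follows the histone cluster names, that is Hist1 to Hist4 or the newer H1f, H2ac, H2bc, H3c and H4c series. This gave 71 of 20232 coding genes with a known strand, of which 67 matched by symbol and 4, H4f16, H2bu2, H2aw and H4bc24, by synonym alone. They comprised 10 genes of the linker histone H1, 18 of H2A, 18 of H2B, 12 of H3 and 13 of H4. H4bc24 carries the synonym Hist1h2br and was counted as an H2B gene.

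Bulk ATAC-seq, which marks DNA that the Tn5 transposase can enter, was performed on 4 samples of non-irradiated C57BL/6 organoids, 2 from passage 1 and 2 from passage 2. Each passage has a sample of a 12-week-old and a sample of a 3-month-old animal, and the labels name no transgene or other genetic change. The study describes the organoids as 7-day cultures, from 4 mice, whereas the labels give no day of culture and do not say which samples share a mouse. The result is 1 list of 32011 distinct open regions, with no value for any single sample. It was taken to be the study's consensus of all organoid samples, although neither its lines nor its regions match the number of peaks that the study gives for that consensus. Each region has a fold, which is the signal at its summit over the local background, and an IDR score of at most 1000 for its reproducibility. The depth and the spread between samples are therefore unknown, passages and ages could not be compared, and all values below are descriptions with no test.

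Cells copy their DNA and double their histones in the same phase of the cell cycle. Most core histone genes serve this demand: they lack introns, their messages end in a stem-loop in place of a poly(A) tail, and the nuclear factor NPAT drives them from a nuclear structure called the histone locus body. H2A and H2B genes are often arranged head to head, so that a single stretch of DNA holds the start sites of both, while H1 binds the linker DNA between nucleosomes. Open chromatin at such a gene shows that its DNA is accessible in some cells of the sample and does not show how much message is made. In bulk samples, fewer cells with an open site and less opening per cell cannot be told apart.

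The sequences on which the comparison of members turns are shown first, read 5′ to 3′ from RefSeq (GRCm38.p6). Capitals mark the letters of 6 words searched on both strands, which are CCAAT (the word bound by NF-Y), TATAAA (the TATA box), ATTTGCAT (the octamer), AAACACA (a word of H1 promoters), GGTCCG (a word of H4 promoters) and GGGCGG (the GC box). Stretches between the start sites of 4 H2A-H2B pairs come first. H2ac12-H2bc12 (chr13:22035644-22035820, plus strand) held the region with the highest fold of all members, H2bc23-H2ac23 (chr13:21810200-21810366, plus strand) is present in a second copy, H2ac20-H2bc21 (chr3:96220881-96221071, minus strand) had the lowest fold among the pairs, and H2bc1-H2ac1 (chr13:23934187-23934436, plus strand) had no region. Of that last stretch, only the 250 bases next to H2ac1 are in the table and printed.
H2ac12-H2bc12: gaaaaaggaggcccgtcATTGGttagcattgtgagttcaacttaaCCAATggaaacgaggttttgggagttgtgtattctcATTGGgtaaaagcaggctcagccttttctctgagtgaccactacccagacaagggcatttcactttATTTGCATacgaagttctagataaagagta
H2bc23-H2ac23: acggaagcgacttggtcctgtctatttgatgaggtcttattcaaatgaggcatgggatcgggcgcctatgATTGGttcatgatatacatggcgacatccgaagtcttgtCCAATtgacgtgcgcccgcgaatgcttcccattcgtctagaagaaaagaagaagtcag
H2ac20-H2bc21: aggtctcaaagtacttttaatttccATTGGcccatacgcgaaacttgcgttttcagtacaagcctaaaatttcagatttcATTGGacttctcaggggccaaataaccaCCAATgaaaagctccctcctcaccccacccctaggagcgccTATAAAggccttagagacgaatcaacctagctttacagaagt
H2bc1-H2ac1: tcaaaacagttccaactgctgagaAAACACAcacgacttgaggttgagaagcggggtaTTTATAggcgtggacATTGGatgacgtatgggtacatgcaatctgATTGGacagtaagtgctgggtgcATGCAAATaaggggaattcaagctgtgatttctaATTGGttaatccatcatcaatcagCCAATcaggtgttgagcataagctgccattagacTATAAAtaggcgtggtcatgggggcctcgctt
The 200 bases before the start of 1 H4, 1 H3 and 1 H1 gene are shown as an example of each. They were taken from H4c3 (chr13:23698459-23698658, minus strand), which had the highest fold of the H4 genes but is the only one of 12 H4 windows with over 1 CCAAT word, H3c6 (chr13:23562386-23562585, minus strand) and H1f2 (chr13:23738607-23738806, plus strand).
H4c3: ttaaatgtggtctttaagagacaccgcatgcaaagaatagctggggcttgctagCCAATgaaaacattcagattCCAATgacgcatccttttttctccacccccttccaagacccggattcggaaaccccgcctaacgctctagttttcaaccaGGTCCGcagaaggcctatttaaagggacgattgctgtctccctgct
H3c6: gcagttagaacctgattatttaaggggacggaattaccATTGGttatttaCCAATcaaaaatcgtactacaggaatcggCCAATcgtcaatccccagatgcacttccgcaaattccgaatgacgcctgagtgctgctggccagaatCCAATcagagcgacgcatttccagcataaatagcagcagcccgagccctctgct
H1f2: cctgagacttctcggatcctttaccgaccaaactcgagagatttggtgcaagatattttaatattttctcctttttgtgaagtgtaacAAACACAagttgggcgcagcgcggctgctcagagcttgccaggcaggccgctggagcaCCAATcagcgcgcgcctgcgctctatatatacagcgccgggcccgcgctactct

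Open regions lay at most histone genes. Of the 71 members, 52 (73.2%, 95% Wilson interval 61.9 to 82.1, counting error only) had a region whose midpoint was within 1 kb of the 5′ end, against 7992 of all 20232 coding genes (39.5%). H2B genes had a region most often (16 of 18), followed by H2A (14 of 18), H4 (9 of 13), H3 (8 of 12) and H1 (5 of 10). The Wilson intervals of these shares overlapped, from 23.7 to 76.3% for H1 to 67.2 to 96.9% for H2B. All these intervals treat each gene as a separate draw, although the 52 genes had only 41 distinct nearest regions. They therefore measure no spread between samples or animals and are likely too narrow. The midpoint of the nearest region was within 250 bp of the 5′ end for 48 of the 71 members (67.6%), beside 32.8% of all coding genes.

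Although frequent, the regions had a lower median fold than those at other coding 5′ ends. Taking the strongest region within 1 kb of each member gave 38 distinct regions, with a median fold of 7.52 (quartiles 6.25 and 9.99, range 4.55 to 16.4). For regions at other coding 5′ ends the median was 8.33 (quartiles 6.41 and 10.96), and for all 32011 regions of the list it was 7.11. Of the 38 regions, 14 exceeded the median of all regions at coding 5′ ends, also 8.33, and 21 (55.3%) had the top IDR score of 1000, beside 61.7% of the 7061 regions at coding 5′ ends. Because histone genes stand close together, the strongest region within 1 kb can belong to a neighbour, so values given for single genes below are those of the nearest region.

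The families differed in median fold, with wide overlap. The median fold of the nearest region, over the genes that had one, was 10.1 for H2A and 9.83 for H2B, the proteins that form the dimer on the outside of the nucleosome core. It was 6.13 for H3 and 6.26 for H4, which form the central tetramer, and 6.25 for the linker H1. H2A ranged from 4.85 at H2ac20 to 16.4 at H2ac12, and H2B had the same range, from H2bc21 to H2bc12, because each of those regions lies at both genes. H3 ranged from 3.89 at H3c11 to 10.0 at H3c7. H4 ranged from 4.65 at H4f16 to 10.98 at H4c3, and H1 from 4.55 at H1f0 to 6.81 at H1f2. The families thus overlapped, and at the upper end 1 of the 22 nearest regions of H1, H3 and H4 genes passed the median of the H2A-H2B pairs.

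**Figure D1:**
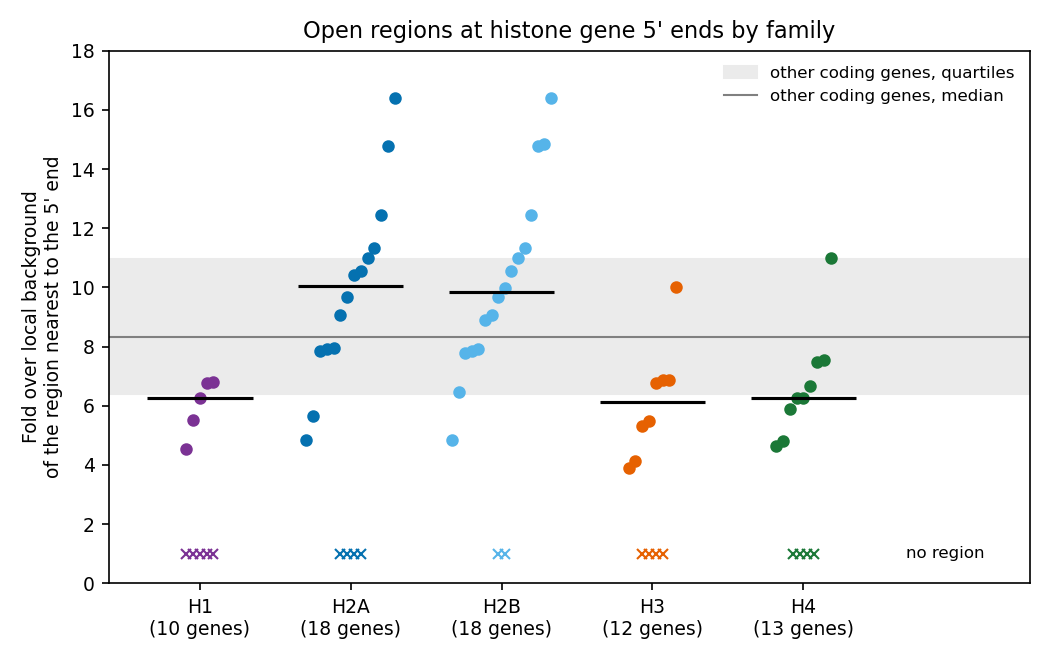
Fold over the local background (vertical axis) of the region nearest to the 5′ end of each histone gene, by family; points are genes with a region within 1 kb, crosses are genes with none, black bars are family medians, and the grey line and band are the median and quartiles of regions at other coding genes. The H2A and H2B medians (10.1 and 9.83) lie above the grey line at 8.33, and those of H1, H3 and H4 (6.25, 6.13 and 6.26) lie below it.

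The strongest regions lay at H2A and H2B genes of chromosome 13. The highest fold was 16.4 at chr13:22035549-22035992, between H2ac12 and H2bc12, which ranked at the 96.6th percentile of regions at coding 5′ ends. It was followed by 14.9 at H2bc14 (chr13:21721780-21722193) and 14.8 between H2bc23 and H2ac23 (chr13:21810032-21810497). The region between H2ac15 and H2bc15 (chr13:21753732-21754153) had a fold of 12.4, and that between H2ac8 and H2bc8 (chr13:23571121-23571489) had 11.3. Outside H2A and H2B, H4c3 was the highest, with a fold of 10.98 at chr13:23698333-23698674. All of these regions had an IDR score of 1000.

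Head-to-head H2A-H2B pairs held 8 of the 14 member regions above 8.33. Among the members, 13 pairs had divergent 5′ ends at most 1 kb apart, and 12 of them shared 1 region, beside 609 of 720 divergent pairs of all coding genes (84.6%), so that sharing was frequent in both. Of the 13, 12 joined an H2A to an H2B gene with gaps of 164 to 281 bp (median 210.5), and 11 of these shared a region. In all 11 the midpoint lay between both start sites, whereas this was so for 239 of the 597 other coding pairs that shared one. The gaps of the other coding pairs were shorter (median 98 bp), and the part of the gap in this difference was not tested.

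The fold of the 11 shared H2A-H2B regions had a median of 10.5, beside 9.25 for the 597 other coding pairs that shared a region (quartiles 7.20 and 12.3). On chromosome 13, in order along the chromosome, it was 7.90 at H2bc13 and H2ac13, 12.4 at H2ac15 and H2bc15, 10.98 at H2ac22 and H2bc22, 14.8 at H2bc23 and H2ac23, 9.69 at H2ac24 and H4bc24, 16.4 at H2ac12 and H2bc12, and 9.08 at H2ac11 and H2bc11. Farther along, it was 11.3 at H2ac8 and H2bc8, 7.85 at H2bc7 and H2ac7, and 10.5 at H2ac6 and H2bc4. The pair on chromosome 3, H2ac20 and H2bc21, stood lowest at 4.85, and it alone of the 11 had an IDR score below 1000, at 620. The regions of all other classes, assigned to 1 family each, had a median of 6.78 over 27 regions, and 6 of them exceeded 8.33, compared with 8 of the 11 pair regions. For most H2A and H2B genes the paired layout and the family cannot be told apart.

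Some H2A and H2B genes without a coding partner lay beside a pseudogene. H2bc14 (fold 14.9) lies 243 bp from the pseudogene H2ac14, H2bc3 (8.90) lies 220 bp from the pseudogene H2ac5-ps, and H2aw (7.96) lies 173 bp from H2bu1-ps. The orientation of these pseudogenes was not determined. The remaining single H2A genes with a region, H2ac18 and H2ac19, had folds of 10.4 and 5.67. The remaining single H2B genes were H2bc18 (9.97), H2bc6 (6.47) and H2bc9 (7.78). H2bc9 forms the only pair of another kind, with H3c7 across 608 bp. The region counted as shared there, with a fold of 10.0 at chr13:23544235-23544531, had its midpoint 331 bp inside H3c7 rather than between the starts.

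The position of the region also differed between families. For 42 of the 52 members with a region (80.8%) the nearest midpoint lay upstream of the 5′ end, with a median of 59 bp upstream, beside 52.5% and 8 bp upstream for 7940 other coding genes. The median was 105.5 bp upstream for H2A, 87.5 bp for H2B, 56 bp for H3 and 40 bp for H4. At the 11 H2A-H2B pairs that shared a region, its midpoint lay between the starts. The same region was therefore upstream of both genes by layout and was counted for each. For these genes, family and paired layout cannot be told apart in the position either. H1 genes went the other way. The nearest midpoint lay downstream at 4 of the 5 H1 genes with a region, 153 bp inside H1f4, 160 bp inside H1f2, 205 bp inside H1f3 and 249 bp inside H1f0, and 54 bp upstream at H1f1. At H1f4, H1f2 and H1f3 the regions were 545, 557 and 613 bp wide, whereas at H1f1 and H1f0 they were 284 and 214 bp wide. The median width was 380 bp for the 41 distinct regions nearest to members. It was 478 bp for the strongest regions at other coding 5′ ends. H1f4, H1f2 and H1f3 are short and lack introns, so regions of 545 to 613 bp cover much of each gene.

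**Figure D2:**
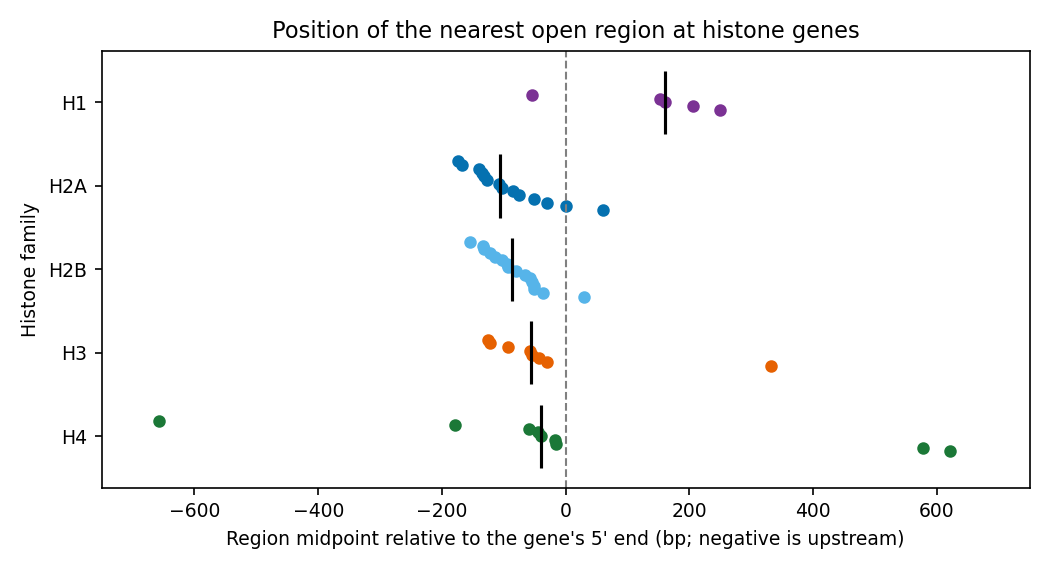
Midpoint of the nearest open region relative to the gene's 5′ end (horizontal axis, bp, negative is upstream) for each histone gene with a region within 1 kb, by family, with black bars at the medians. H2A, H2B, H3 and H4 points lie mostly left of the dashed line at 0, and 4 of the 5 H1 points lie to its right.

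Regions were also counted just past the 3′ end, a measure chosen after the values were seen. A region midpoint lay at most 500 bp past the 3′ end of 9 of the 71 members, beside 1.23% of all coding genes (249 of 20232). At 5 of the 9 (H1f4, H3c1, H3c11, H4c8 and H4f16) this region also lay within 1 kb of the gene's own 5′ end and was counted there, being the only such region of H4c8 and H4f16. At the other 4, all H1 genes, it lay over 1 kb from the 5′ end. Histone genes are short, and among coding genes up to 1 kb long the share was 0.893% (11 of 1232), with 8 of these 11 genes being members. Of the 1171 short genes that are not members, however, only 2.73% had a region at the 5′ end, so most of them differ from the members in that respect as well. H1 held most of the cases, with 5 of 10 genes, compared with 2 of 12 H3, 2 of 13 H4, and 0 of 18 H2A and 0 of 18 H2B genes.

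At H1f2 the second region had its midpoint 372 bp past the 3′ end (chr13:23739543-23740264, fold 5.40), and the nearest other coding 5′ end was 5618 bp away. H1f3 was alike, with a midpoint 365 bp past the 3′ end (chr13:23555991-23556354, fold 5.85). H1f5 had no region at its 5′ end but had one 351 bp past its 3′ end (chr13:21779331-21779632, fold 7.11). At H1f4 the region past the 3′ end (fold 7.75) lay 548 bp from the start of H2bc6, and at H1f0 (fold 7.46) it lay 11 bp from the start of Gcat, so those 2 also belong to a neighbour. Among the others, the region past H3c1 lay 179 bp from the start of H4c1. Those past H3c11 (fold 6.25), H4c8 (7.56) and H4f16 (4.65) lay over 1 kb from any other coding 5′ end, at 1798, 2210 and 4395 bp.

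Members fell into 4 blocks when split at gaps over 250 kb. Chromosome 13 held 23 members in a first block of 328 kb and 31 in a second of 404 kb, chromosome 3 held 10 in 50.3 kb, and chromosome 11 held 2 in 6.28 kb. A region was found at 18 of 23 members of the first block, 23 of 31 of the second, 8 of 10 on chromosome 3 and 1 of 2 on chromosome 11. The median fold of the strongest regions was 9.69, 7.48 and 6.65 in the first 3 of these. In the first chromosome 13 block all 7 H2A and all 8 H2B genes had a region, compared with 3 of 6 H2A and 6 of 7 H2B genes of the second. The first block includes H2bc23, H2ac23, H2ac24 and H4bc24, whose promoter sequence occurs more than once in the genome. In the second, the genes without one were H2ac1 and H2bc1, known from the testis, and H2ac4 and H2ac10. Regions lay 1242 and 1420 bp from these last genes, past the limit of 1 kb.

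**Figure D3:**
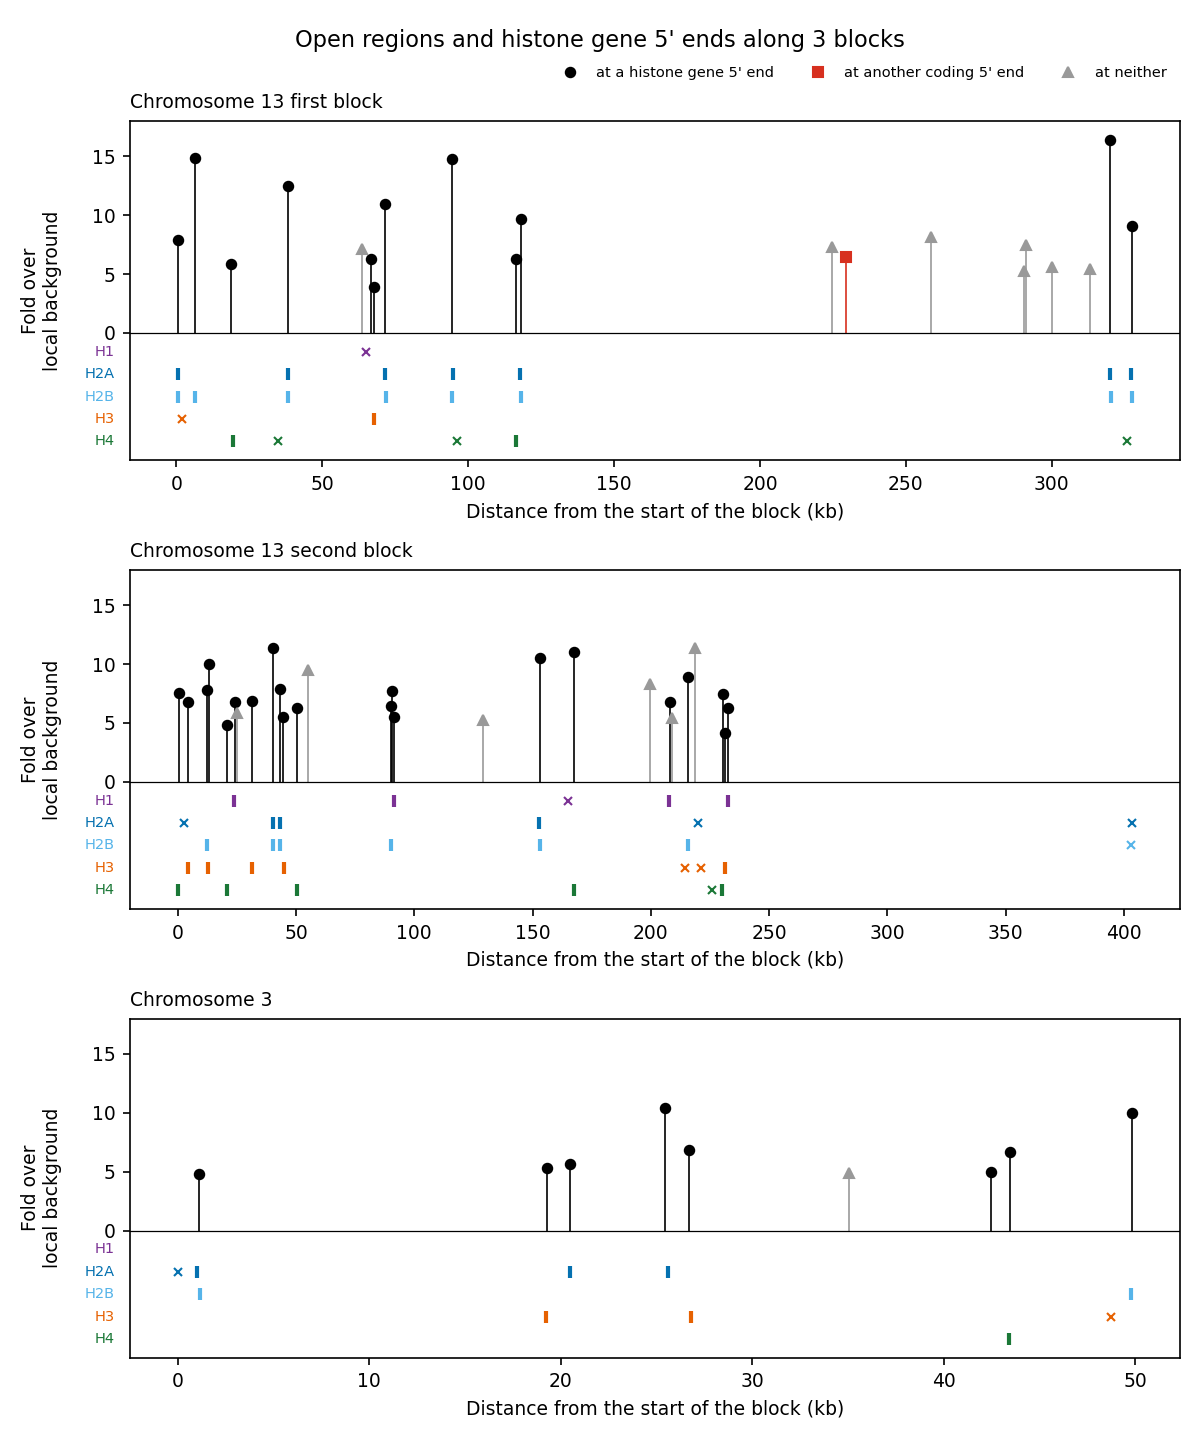
Fold over the local background (vertical axis) of each open region against its distance from the start of the block (horizontal axis, kb) for both chromosome 13 blocks and the chromosome 3 block; black circles lie at a histone 5′ end, the red square at another coding 5′ end and grey triangles at neither. Marks under each panel give the 5′ ends by family, as bars with a region and crosses without one, and the far end of the second block shows H2bc1 and H2ac1 without a region.

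On chromosome 3, H3c15 had a nearest fold of 5.30, H2ac19 of 5.67, H2ac18 of 10.4, H3c14 of 6.87, H4c14 of 6.65 and H2bc18 of 9.97, beside 4.85 for the pair H2ac20 and H2bc21. H2ac21 and H3c13 had none within 1 kb. On chromosome 11, H2aw had a fold of 7.96 in a region that also lies at the start of Trim17, and H2bu2 had none. Of the 5 members outside the blocks, H1f0 on chromosome 15 (4.55) and H4f16 on chromosome 6 (4.65) had a region and H1f10, H1f7 and H1f8 did not. H1f0 encodes the linker histone of non-dividing and differentiated cells, so it is not replication-dependent although the naming rule includes it.

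The blocks together held 57 regions in 788 kb, or 7.23 per 100 kb, which is 5.67 times the 1.27 per 100 kb of the autosomes. The blocks run from the first to the last member and hold 66 members, so they are dense in gene starts. The ratio was not adjusted for that density. Of the 57 regions, 42 (73.7%) lay at a member's 5′ end, 1 at Zfp184 and 14 at neither. In the whole list, 7061 of 32011 regions were the strongest at a coding 5′ end. That count is narrower than the 42, which include weaker regions within 1 kb of a member, so the shares are not alike. The strongest of the 14, with a fold of 11.4, was at chr13:23749642-23750050, 1242 bp from the start of H2ac4 and overlapping no gene of the table. Another, with a fold of 9.48 at chr13:23585862-23586177, overlaps H2bc6 and lies at its second listed start. A further pair overlap Prss16, a protease gene, with folds of 5.27 and 7.48, and 1 overlaps the non-coding Gm20627 on chromosome 3 (4.91). Of 31 tRNA genes inside the first chromosome 13 block, 2 were overlapped by a region (n-TDgtc12 with a fold of 7.29 and n-TVaac3 with 5.56), or 6.45% beside 14.6% of the 391 autosomal tRNA genes.

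No region was found within 1 kb of 19 members. For 9 of them the nearest midpoint lay within 2 kb, at H3c13 (1076 bp), H3c3 (1099 bp), H2ac21 (1135 bp), H1f5 (1144 bp), H2ac4 (1242 bp), H3c10 (1291 bp), H2ac10 (1420 bp), H4c17 (1482 bp) and H4c9 (1755 bp), and at 7 of these 9 it was the region of another member. Among members with a region, the nearest midpoint was most distant at H4c11 (657 bp), H4c8 (621 bp) and H4f16 (578 bp). H3c2 (2499 bp), H1f6 (2692 bp), H4c12 (3389 bp), H4c2 (4491 bp) and H2bu2 (5835 bp) lay farther from any region. H1f8, H1f10, H1f7, H2bc1 and H2ac1 were farthest, at 16890 to 170823 bp.

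Members known from germ cells stood among those without a region. H1f6 and H1f7 encode H1 forms of the testis, H1f8 that of the oocyte, and H2bc1 and H2ac1 the testis forms of H2B and H2A. None of these 5 had a region within 1 kb, a group named after its values were seen. Of all coding genes, 39.5% had one, so most coding genes lack a region too, and 5 genes are too few to tell from that share. H2bc1 and H2ac1 form the 1 H2A-H2B pair that shared none. Their starts lie 281 bp apart, and the 250 bases printed above hold 4 CCAAT words, 2 TATAAA words and 1 octamer. The 177 bases between H2ac12 and H2bc12 hold 3 CCAAT words, 0 TATAAA words and 1 octamer. These stretches differ in length, so their counts are not directly comparable. In promoter windows of equal length (below), there were 2 TATAAA words at H2ac1 and 1 each at H2bc1, H2ac12 and H2bc12. CCAAT and the octamer are thus present both at the pair with the highest fold and at the pair with no region.

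The promoter windows of 66 members, each from 250 bases before to 50 after the start, were compared by the 6 words, none of which contains another. The windows of head-to-head partners overlap and can count the same word for both genes. CCAAT was present in 54 of the 66 (81.8%), beside 39.1% of all 16457 coding promoters, and in all 18 H2A, all 16 H2B and all 10 H3 windows. It was found in 7 of 10 H1 windows and in 3 of 12 H4 windows. TATAAA was present in 35 (53.0%) beside 13.5%, with 4 of 10 in H1 and H3, 11 of 18 in H2A, 8 of 16 in H2B and 8 of 12 in H4. The H4 genes, which mostly lacked CCAAT, instead held GGTCCG in 11 of 12 windows, beside 10.8% of all promoters and 3 of the 54 other member windows.

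The octamer was found in 7 of 18 H2A and 6 of 16 H2B windows and in 0 of the 32 windows of the other families, beside 1.74% of all promoters. AAACACA, a word of H1 promoters, was in 5 of 10 H1 windows beside 6.26% of all. GGGCGG was in 25 of 66 (37.9%) beside 47.3%, with 9 of 12 in H4, 6 of 10 in H1, 7 of 18 in H2A, 2 of 10 in H3 and 1 of 16 in H2B. Members with a region did not hold every word more often than those without. CCAAT was in 41 of 47 windows with a region and 13 of 19 without, TATAAA in 24 of 47 and 11 of 19, and the octamer in 10 of 47 and 3 of 19. A match says only that the letters are present in the window.

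**Figure D4:**
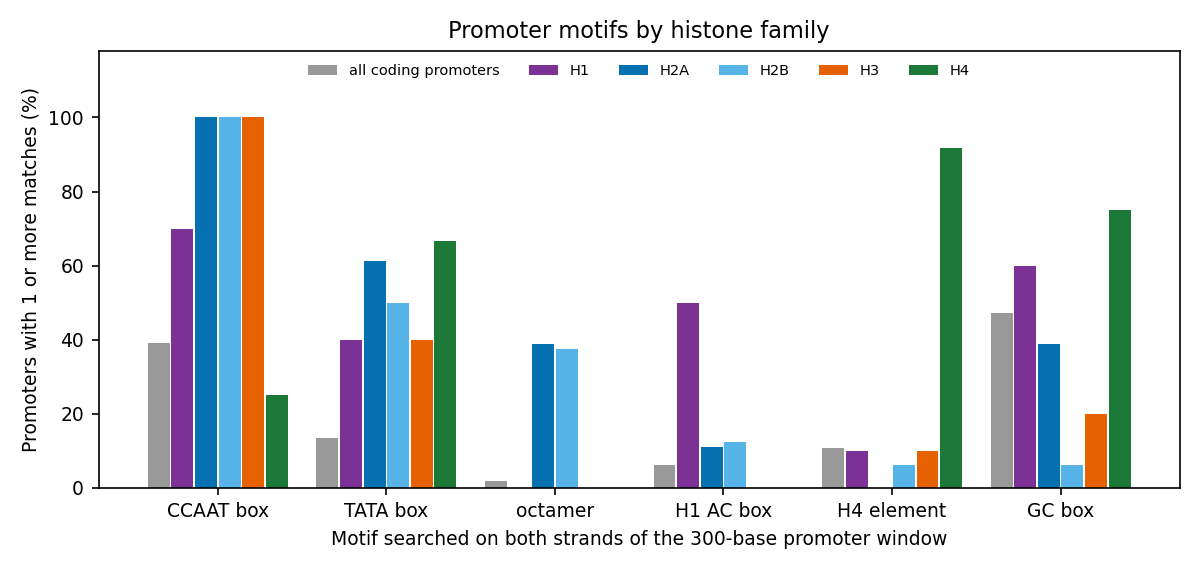
Percent of 300-base promoter windows (vertical axis) with at least 1 match to each word (horizontal axis), for all coding promoters in grey and for the histone families in colour; there are 10 H1, 18 H2A, 16 H2B, 10 H3 and 12 H4 windows. CCAAT reaches 100% in H2A, H2B and H3 but 3 of 12 windows in H4, and the H4 word reaches 91.7% in H4.

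Many histone genes hold stretches that occur more than once in the genome, and reads of 75 bp from a repeated stretch cannot be placed at 1 site by sequence alone. How the authors treated such reads is not given in the sources used here. In the promoter windows, 10 of 66 members (15.2%) held a 75-base word found more than once in the genome (GRCm39, compared by sequence only), beside 8.16% of 16391 other coding genes. In those 10, over 50% of the words were repeated, which was so for 3.87% of the others, and no word had more than 2 copies. All were repeated at H2bc23, H2ac23, H2ac24 and H4bc24, 93.8% at H4c18, 93.4% at H4c17, 76.1% at H3c14, 69.5% at H3c15, 68.1% at H2ac18 and 64.2% at H2ac19. The transcribed parts were more alike, with repeated words in 56 of 67 member transcripts, a median of 38.1% of words repeated, and 100% at H2ac19, H2ac23 and H2ac24. In H1 transcripts at most 6.66% of words were repeated. Words before the start, where most regions lay, were thus unique at 56 of the 66 members.

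**Figure D5:**
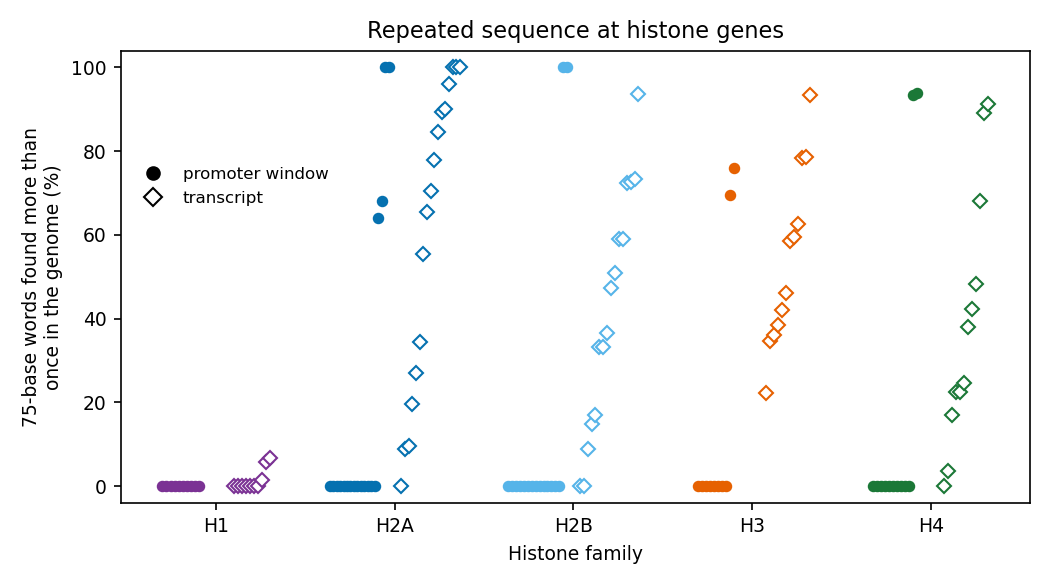
Percent of 75-base words found more than once in the mouse genome (vertical axis) for each histone gene, by family; filled circles are promoter windows and open diamonds are transcripts. Promoter windows sit at 0 for 56 of 66 members, while transcripts of H2A, H2B, H3 and H4 genes spread up to 100%, 93.7%, 93.5% and 91.3%.

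The copies did not have equal values. The 300-base windows of H2bc23 and H4bc24 are the same at all 300 positions, yet the fold was 14.8 at the first and 9.69 at the second. H2ac18 and H2ac19 share 145 words and had 10.4 and 5.67, H3c14 and H3c15 share 157 words and had 6.87 and 5.30, and H4c18 had 6.24 whereas its copy H4c17 had no region within 1 kb. For these 10 genes the fold of a single copy cannot be assigned with certainty, and the missing region at H4c17 says nothing about openness there. Without the members whose window holds repeated words, 43 of 61 (70.5%) had a region, a count that includes 5 members with no promoter sequence, which were not checked for repeats.

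Genes of the same pathway elsewhere in the genome had higher median folds. In a list of histone gene expression, 20 of 23 genes had a region within 1 kb, beside 39.5% of all coding genes. Their median fold was 9.73. Npat, the activator of the clusters, had 16.8, Casp8ap2, a partner of NPAT in the histone locus body, had 17.3, and Hinfp, which binds H4 promoters, had 13.9. Slbp, whose product binds the stem-loop of histone messages, had 8.87, and the S-phase cyclin gene Ccna2 had the highest value, 20.1. Srrt, Ybx1 and Nfyc had no region, whereas Nfya and Nfyb, the other subunits of the CCAAT-binding factor, had 9.94 and 12.1.

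All 18 autosomal histone chaperone genes of the list had a region, with a median fold of 10.9 and the highest value, 20.1, at Asf1a, which hands H3 and H4 to assembly factors. Of 9 replication-independent variant genes, which are expressed throughout the cell cycle or in other settings, 6 had a region with a median fold of 10.2. Beside both counts, 39.5% of all coding genes had a region. H2az2 was highest with 14.2, Cenpa, the centromeric H3, had 10.2, and H3f3a, which encodes H3.3, was lowest with 8.62. H3f3b had its nearest region 1429 bp away, and Macroh2a1 and Macroh2a2 had none near. The 3 lists thus had medians above the 7.52 of the cluster genes, and all 3 also above the 8.33 of other coding 5′ ends.

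For the labelled tissue, 9 of 12 epithelial markers had a region within 1 kb (Krt18, Krt7 and Trp63 did not), and 6 of 7 genes of dividing cells did (Mki67 did not). Of 6 immune markers only Cd68 had one (fold 4.58), and 0 of 6 endothelial and 0 of 6 fibroblast markers had one. The share of all coding genes with a region was 39.5%, and each marker list is short. The part of these cell types in the values of the histone genes was not tested.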

How the data were processed

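ATAC-seq libraries of 4 organoid samples were sequenced as 75 bp paired-end reads. Alignment and peak calling were done by the authors in the ENCODE ATAC-seq pipeline, whose version and filters, like the depth per sample, are not given in the sources used here. The list deposited by the authors holds, per summit, the IDR score, the fold (ratio) of signal over local background, the −log10 q-value and the summit offset, which only located summits. Its −log10 p-value column was not used. The deposited −log10 q-value served to choose the strongest summit of a region and the stricter sets. The submitters' processing notes name GRCm39 and HOMER, yet regions run past the GRCm39 end of 8 of 21 chromosomes, and coding 5′ ends shifted by 50 or 100 kb had a region at 3.92 to 4.62%, so coordinates were read as GRCm38.

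Lines with the same start and end (69545 in all) were joined into 32011 regions. Gene positions came from RefSeq GRCm38.p6, and strand from its promoter table (16457 genes) or, by name, from GRCm39 (3775 genes, 5 members among them); 433 coding genes without strand were left out. A gene had a region when a midpoint lay within 1 kb of its 5′ end. Words of 75 bases were counted in GRCm39 by sequence alone, and no coordinate was passed between builds. The gene matching was tested on simulated data (200 of 200 planted regions recovered among 16497 genes, 0 wrongly called). Scripts ran in Python 3.11.15 with pandas 2.3.3, numpy 2.4.6, matplotlib 3.10.9 and scipy 1.17.1.

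Members and lists were chosen with earlier results of these data known. Named by rule were the 5 highest members, the highest and lowest of each family, members on chromosomes 3 and 11 and outside the blocks, shared pairs, members without a region, list genes, and block neighbours with a region. Alternatives covered distance, strand, stricter regions, member definition and block gaps.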

Additional observations from a re-analysis of the deposited data

How the results depend on the processing

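The share of members with a region was 85.9% within 2 kb, 53.5% with the 16006 regions of lowest q-values and 46.5% with the 14422 regions of IDR score 1000, beside 42.8%, 26.7% and 24.9% of all coding genes. The number of regions in the blocks was 115 with every line counted, 33 with the lowest q-values and 26 with an IDR score of 1000, compared with 57. Fewer regions were considered in the stricter sets by construction. The median fold, the share of block regions at members, the pairs that shared a region and the CCAAT count stayed within their limits of change in the alternatives run for each. In an alternative chosen after seeing the data, 67.6% of members had a region within 250 bp, beside 32.8% of all coding genes. Leaving out the 5 germ-cell members, also chosen after seeing the data, gave 78.8% (52 of 66), beside 39.5% of all coding genes. That step could only raise the share, because none of the 5 had a region. With an IDR score of 1000, 1 of 10 H1, 2 of 12 H3 and 3 of 13 H4 genes kept a region, compared with 12 of 18 H2A and 15 of 18 H2B genes. Within 500 bp, 6 of 13 H4 genes had a region, compared with 9 of 13 within 1 kb, while the counts of the other families did not change. The order of H4 among the families therefore depends on the distance. No paired analysis was possible because the list has no value for any single sample, and no replicate could be left out for the same reason. Depth per sample is unknown, so a missing region is no evidence of closed chromatin.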

Other observations

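Between both histone blocks of chromosome 13, 1487 kb held 10 regions, or 0.672 per 100 kb, beside 7.23 per 100 kb inside the 4 blocks. Of its 41 coding genes, 36 encode vomeronasal receptors, which are known from sensory neurons of the nose. A region was present at the 5′ end of 3 of the 41, Zfp322a, Abt1 and Btn2a2, beside 39.5% of all coding genes. Within the second block, a region was at the 5′ end of 0 of the 6 coding genes that are not histone genes, among them the transporters Slc17a1 to Slc17a4 and the iron regulator Hfe.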
